A study of Mus musculus with 12 samples.

Results

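Collagens are built from α chains that wind into long rope-like helices, and each chain has its own gene. Fibrillar collagens (types I, II, III, V, XI, XXIV and XXVII) form the load-bearing fibres around vessels and airways. Type IV collagen is the sheet-like scaffold of basement membranes, with types XV and XVIII at their edges. The remaining types decorate fibrils, form beaded filaments or short-chain networks, anchor epithelia or span the cell membrane. In the lung, endothelial cells sit on a type IV basement membrane, and fibroblasts are known as the main makers of type I and type III collagen. Sp1 is a zinc-finger transcription factor that binds GC-rich DNA, and the type I collagen genes Col1a1 and Col1a2 are textbook targets of it.

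The collagen chain genes were taken as all protein-coding genes whose mouse symbol is Col, a type number, the letter a and a chain number. There were 44 of them among the 28689 genes of the table, and these were 11 fibrillar chains, 8 basement membrane chains and 25 other chains. Symbols came from Ensembl identifiers through the GENCODE M39 annotation of GRCm39, the assembly that is also called mm39. RNA was sequenced from cultures of mouse lung endothelial cells (MLECs), which CD31 beads and later ICAM2 beads had enriched and which were used at early passages. CTR MLECs (6 libraries) came from male VE-CAD-CreERT2-/Sp1 fl/fl/Sp3 fl/fl littermates, given as WT in the labels, and dKO MLECs (6 libraries) from adult male VE-CAD-CreERT2+/Sp1 fl/fl/Sp3 fl/fl mice. Both groups of mice carried the floxed alleles and received tamoxifen, so they differ in the tamoxifen-inducible Cre, which the VE-cadherin promoter drives in endothelial cells. The number of mice behind a library is not given, so p-values measure the spread between these libraries, which may be partly technical.

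The values are FPKM, the fragments on a gene per kilobase of its length, scaled to the fragments of the library. The depth was 15523054 to 17938286 fragments a library, at which 1 fragment adds 0.0279 to 0.0322 FPKM to a gene whose length is 2 kb. Genes that reached 1 FPKM in 6 or more of the 12 libraries were compared between dKO and CTR on log2(FPKM + 1) with limma, and a gene was called at a Benjamini-Hochberg adjusted p under 0.05 over all 12467 genes tested. A difference on this scale is written as a log2 fold change, it understates the change of genes near 1 FPKM, and ± after it is its standard error. Over the whole table, 53.1% of the tested genes were called, 20.4% as higher and 32.6% as lower in dKO, and the median log2 fold change was −0.10. With median-of-ratios scaling in place of the deposited scaling, the calls over all genes were 3213 higher and 3012 lower, against 2549 higher and 4065 lower. Sp1 was at 19.4 to 23.7 FPKM (median 20.7) in CTR and 8.42 to 12.1 FPKM (median 10.99) in dKO, with no overlap and a log2 fold change of −0.95 ± 0.09 (adjusted p = 5.68e-06). Sp3 was at 24.2 to 31.1 FPKM (median 27.7) in CTR and 22.5 to 26.9 FPKM (median 25.3) in dKO, which overlapped (log2 fold change −0.14 ± 0.07, adjusted p = 0.0902). A value per gene does not show whether the floxed exons were removed from the transcripts that remained.

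Other cells were present in these cultures, and some of their markers moved with the groups. The counts of markers stand beside 20.4% of all tested genes called as higher in dKO and 32.6% called as lower. All 10 endothelial markers were higher in dKO, with a summed level of 188 to 309 FPKM in CTR and 358 to 483 FPKM in dKO. Pecam1, which encodes the CD31 used for selection, was at 26.1 to 44.02 FPKM in CTR and 51.9 to 71.3 FPKM in dKO. Of 10 macrophage markers, 9 were higher and 1 was lower (sums of 784 to 1328 and 2109 to 4476 FPKM). Among the 9, Fcgr1, passed the filter through its 6 dKO libraries alone. Of 7 mesothelial markers, 6 were higher (sums of 32.1 to 43.8 and 72.3 to 163 FPKM). Of 10 fibroblast markers, 9 were tested, 1 was higher and 2 were lower (sums of 177 to 501 and 146 to 504 FPKM). Of 10 smooth muscle and pericyte markers, 9 were tested, 2 were higher and 1 was lower (sums of 565 to 1515 and 506 to 905 FPKM). Of 8 lung epithelial markers, 1 was higher (sums of 92.9 to 534 and 159 to 377 FPKM). The part of these cells in the collagen results was not tested, and in such bulk libraries fewer cells of a type and less RNA per cell cannot be told apart. The 6 retina markers, listed because the labels' protocol text speaks of retinas, summed to at most 0.490 FPKM in any library.

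The start-site sequences of 6 chains are shown because Sp1 is known to bind GC boxes and because these chains went in both directions. In these sequences, capitals mark each GGGCGG or its reverse complement CCGCCC. The sequences are the bases before the annotated start on GRCm39, read up to the first annotated exon. They run 5′ to 3′ on the strand of the gene. They lie at chr11:94826800-94827049 (+, Col1a1), chr6:4505370-4505492 (+, Col1a2), chr1:45350448-45350697 (+, Col3a1), chr2:27776147-27776396 (+, Col5a1), chr16:57575101-57575350 (−, Col8a1) and chr11:51180316-51180565 (+, Col23a1).
Col1a1: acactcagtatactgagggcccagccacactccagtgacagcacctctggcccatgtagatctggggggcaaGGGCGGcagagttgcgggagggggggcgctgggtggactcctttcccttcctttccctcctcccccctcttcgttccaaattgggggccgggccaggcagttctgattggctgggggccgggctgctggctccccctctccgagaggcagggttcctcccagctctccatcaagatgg
Col1a2: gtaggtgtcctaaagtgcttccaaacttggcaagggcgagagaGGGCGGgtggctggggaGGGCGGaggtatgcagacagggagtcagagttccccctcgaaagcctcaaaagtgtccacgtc
Col3a1: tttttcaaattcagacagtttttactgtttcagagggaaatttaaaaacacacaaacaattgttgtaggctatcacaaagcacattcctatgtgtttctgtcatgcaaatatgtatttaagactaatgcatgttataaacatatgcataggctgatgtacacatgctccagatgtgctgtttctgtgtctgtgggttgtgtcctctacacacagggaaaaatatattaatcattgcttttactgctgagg
Col5a1: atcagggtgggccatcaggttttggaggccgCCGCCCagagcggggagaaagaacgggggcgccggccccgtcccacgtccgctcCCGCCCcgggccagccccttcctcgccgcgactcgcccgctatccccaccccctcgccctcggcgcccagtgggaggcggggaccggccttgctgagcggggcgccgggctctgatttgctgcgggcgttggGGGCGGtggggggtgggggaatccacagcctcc
Col8a1: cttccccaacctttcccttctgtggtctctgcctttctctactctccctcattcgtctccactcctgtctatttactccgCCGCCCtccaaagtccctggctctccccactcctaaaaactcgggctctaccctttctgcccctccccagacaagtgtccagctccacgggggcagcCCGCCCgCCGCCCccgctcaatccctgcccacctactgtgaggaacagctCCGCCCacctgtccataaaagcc
Col23a1: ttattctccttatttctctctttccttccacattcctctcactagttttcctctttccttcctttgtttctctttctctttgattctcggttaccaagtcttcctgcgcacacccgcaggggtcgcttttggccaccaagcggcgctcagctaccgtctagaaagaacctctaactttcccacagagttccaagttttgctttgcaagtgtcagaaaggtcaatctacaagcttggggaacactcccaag

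The printed bases hold 1 such box before Col1a1, 2 before Col1a2, 3 before Col5a1 and 4 before Col8a1, and none before Col3a1 or Col23a1. As reported further on, Col1a1, Col1a2, Col3a1 and Col5a1 were lower in dKO, while Col8a1 and Col23a1 were higher. These 6 chains were picked with their directions known, so their boxes do not describe the chains as a whole. Over the full 250 bases before the start, read through annotated exons, GGGCGG stood on either strand before 21 of the 44 chains (47.7%) and before 12 of the 26 tested chains (46.2%), against 50.6% of the 11315 tested protein-coding genes. Among the tested chains it stood before 3 of the 7 that were higher, 8 of the 14 that were lower and 1 of the 5 that were not called. The related GGGAGG stood before 20 of the 26 tested chains (76.9%) and before 43.3% of the tested protein-coding genes. It stood before 6 of the 7 higher chains, 9 of the 14 lower chains and all 5 that were not called. CCAAT stood before 42.3% of the tested chains against 35.9% of those genes, and TATAAA before 11.5% against 7.0%. These are matches of letters and not binding sites.

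Of the 44 chains, 26 passed the filter and 18 did not. In dKO versus CTR MLECs, 21 of the 26 tested chains were called, beside 53.1% of all tested genes. Of the 21, 7 were higher and 14 lower. The counts by direction stand beside 20.4% of all tested genes called as higher and 32.6% called as lower. Of 7 tested fibrillar chains, 6 were lower and none was higher, and their median log2 fold change was −0.77. Of 8 basement membrane chains, 4 were higher and 3 lower, with a median of 0.14. Of 11 other chains, 3 were higher and 5 lower, with a median of −0.44. Over the 26 chains the median was −0.52, against −0.10 over all genes tested. The groups did not overlap in 11 of the 26 chains (4 higher, 7 lower), beside 27.4% of all tested genes. These shares rest on chains that passed the filter, and 6 of the 26 (Col4a3, Col4a4, Col4a6, Col7a1, Col13a1 and Col28a1) were under 1 FPKM in at least 1 library. Of the other 20, which were at 1 FPKM or more in all 12 libraries, 5 were higher, 12 lower and 3 not called. The share over all genes held to that rule was not computed. With no filter, 23 of the 44 chains were called (8 higher, 15 lower), beside 26.3% of all genes in that fit. The study describes its stricter rule in its text on the log2 scale and in a heat map legend as a plain fold, so both are given. At an absolute log2 fold change over 1.5, none of the 26 chains was called by limma, at an adjusted or an unadjusted p under 0.05, beside 1.98% of all tested genes. By limma-voom on the recovered fragments, 4 chains passed it (Col8a1, Col23a1, Col7a1 and Col4a6), beside 4.14% of the genes in that fit. At 1.5-fold, a count added after the values were seen, 16 of the 26 chains were called (3 higher, 13 lower), beside 17.9% of all tested genes.

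**Figure D1:**
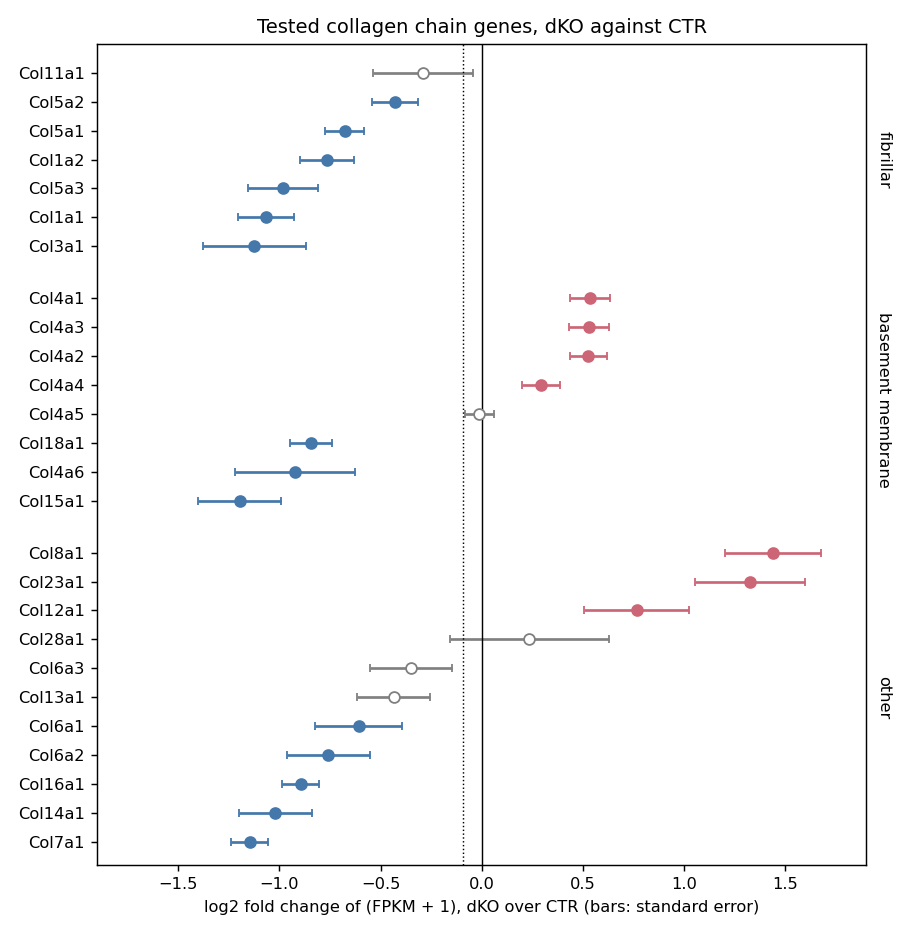
Log2 fold change of FPKM + 1 in dKO over CTR MLECs for the 26 tested collagen chain genes, grouped by class (labels at the right), with bars for the standard error. Filled red points were called as higher (7), filled blue points as lower (14) and open grey points were not called (5), and the dotted line marks the median of all tested genes at −0.10.

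The fibrillar chains held the largest share of the collagen FPKM in CTR. In dKO, 6 of the 7 tested were lower, beside 32.6% of all tested genes. Col1a1 (ENSMUSG00000001506, chr11:94827050-94843868), the α1 chain of type I collagen, was the most abundant of the 44 chains in all 6 CTR libraries. It was at 1070.3 to 1267 FPKM (median 1171) in CTR and 395 to 685 FPKM (median 625) in dKO. The highest dKO library stayed well under the lowest CTR library. The log2 fold change was −1.07 ± 0.14 (adjusted p = 4.75e-05 by limma), on 788637 fragments in CTR and 388051 in dKO. Col1a2 (ENSMUSG00000029661, chr6:4504814-4541555), the α2 chain of type I collagen, was at 529 to 649.8 FPKM (median 606) in CTR and 243 to 438 FPKM (median 379) in dKO. These groups did not overlap either, and the log2 fold change was −0.77 ± 0.13 (adjusted p = 0.000452). In both type I genes, dKO 1 and dKO 3 were the lowest libraries.

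Col3a1, the chain of type III collagen that co-assembles with type I in vessel walls, varied more. It was at 346 to 716 FPKM (median 532) in CTR and 115 to 360.2 FPKM (median 282) in dKO. Only the highest dKO library reached above the lowest CTR library, and the log2 fold change was −1.12 ± 0.25 (adjusted p = 0.0026). Type V collagen nucleates type I fibrils and is made of the chains of Col5a1, Col5a2 and Col5a3. Col5a2 was at 272 to 447 FPKM (median 367) in CTR and 212 to 308 FPKM (median 279) in dKO, with overlap (log2 fold change −0.43 ± 0.11, adjusted p = 0.00723). Col5a1 was at 111 to 136 FPKM (median 128) in CTR and 61.9 to 91.5 FPKM (median 81.5) in dKO, without overlap (−0.68 ± 0.10, adjusted p = 9.85e-05). Col5a3, the least abundant of these chains, was at 15.8 to 30.7 FPKM (median 22.5) in CTR and 7.43 to 16.97 FPKM (median 10.99) in dKO (−0.98 ± 0.17, adjusted p = 0.000441). Its groups touched, as 1 dKO library (dKO 5) lay above CTR 4. All 6 chains of types I, III and V were thus lower, but to different extents.

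Col11a1, a type XI chain that sets fibril width in cartilage, was at 13.0 to 48.8 FPKM (median 30.6) in CTR and 16.0 to 30.6 FPKM (median 22.5) in dKO. Its log2 fold change of −0.29 ± 0.25 was not called (adjusted p = 0.339). The lowest and the highest of all 12 values were both CTR libraries, CTR 4 and CTR 6. Without CTR 4, Col11a1 was called as lower (−0.50, adjusted p = 0.0297). Col2a1, Col11a2, Col24a1 and Col27a1 were under 1 FPKM in every library and were not tested.

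**Figure D2:**
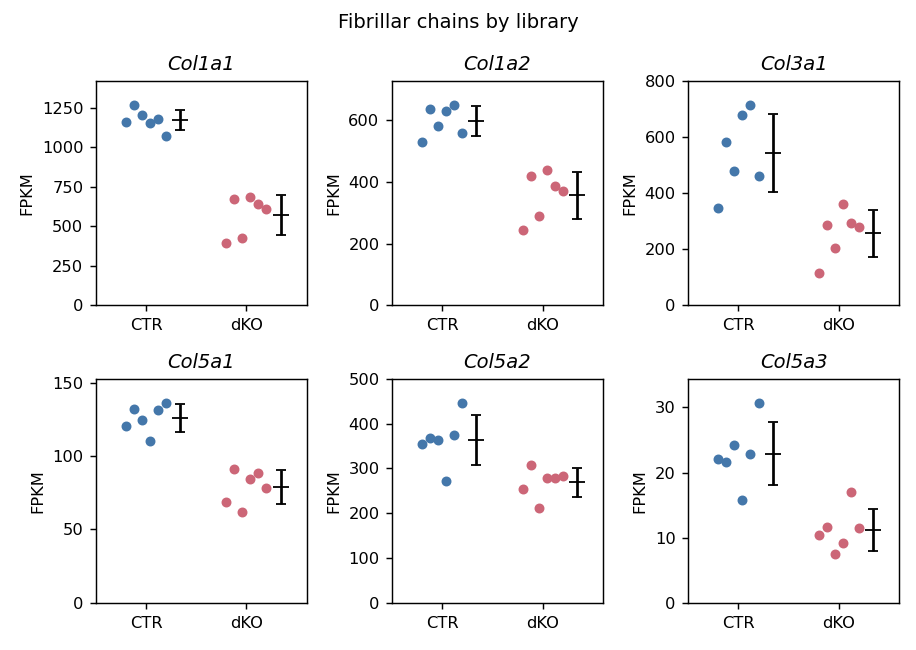
FPKM of 6 fibrillar chains in each CTR (blue) and dKO (red) library, each point 1 library, with the mean and SD of the 6 libraries in black and each axis starting at 0. Col1a1, Col1a2 and Col5a1 show a gap between the groups, and Col3a1, Col5a2 and Col5a3 overlap in 1 or more libraries.

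Of the 6 type IV collagen chains, 4 were higher in dKO, 1 was lower and 1 was not called. Over all tested genes, 20.4% were called as higher and 32.6% as lower. Col4a1 (ENSMUSG00000031502, chr8:11248423-11362826) and Col4a2 (ENSMUSG00000031503, chr8:11362471-11499287) encode the chains of the common basement membrane network and start head to head. Col4a1 was at 377 to 438 FPKM (median 411) in CTR and 466 to 722 FPKM (median 606) in dKO. All dKO libraries were above all CTR libraries, with a log2 fold change of 0.53 ± 0.10 (adjusted p = 0.000564). Col4a2 was at 234 to 282 FPKM (median 275) in CTR and 311 to 451 FPKM (median 389.8) in dKO, again without overlap (0.53 ± 0.09, adjusted p = 0.000349). Col4a1 ranked at place 4 of the 44 chains by mean FPKM in CTR and at place 1 in dKO, where it was the most abundant chain in 3 of 6 libraries, with Col1a1 first in the other 3. The annotated models of this pair overlap by 356 bases around their starts, 317 bases apart, and reads in that overlap could not be told apart unless the counting used strand, which is not stated.

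Col4a3 and Col4a4 encode chains of a more specialised network, found in the alveolar and glomerular basement membranes, and also start head to head, 103 bases apart on chromosome 1 with 159 bases of overlap. Both were near the filter. Col4a3 was at 0.996 to 1.34 FPKM (median 1.17) in CTR and 1.38 to 2.83 FPKM (median 2.199) in dKO, without overlap (0.53 ± 0.10, adjusted p = 0.00075). Col4a4 was at 0.849 to 1.26 FPKM (median 1.13) in CTR and 1.03 to 1.91 FPKM (median 1.64) in dKO, where dKO 6 lay within the CTR range (0.29 ± 0.09, adjusted p = 0.0201). Library dKO 6 was the lowest of the dKO libraries for both genes.

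The third head-to-head pair did not move together. Col4a5 and Col4a6, on the X chromosome with starts 1282 bases apart, encode the remaining type IV chains. Col4a5 was at 20.6 to 25.5 FPKM (median 23.3) in CTR and 19.7 to 24.8 FPKM (median 23.6) in dKO, and its log2 fold change of −0.01 ± 0.07 was not called (adjusted p = 0.899). Col4a6 was at 2.17 to 3.23 FPKM (median 2.37) in CTR. In dKO it was at 0.113 FPKM in dKO 1, 2.39 in dKO 2, 0.136 in dKO 3, 2.22 in dKO 4, 1.64 in dKO 5 and 0.113 in dKO 6. So 2 dKO libraries lay within the CTR range, 1 was below it and 3 were more than 10-fold below its lowest value. In fragments, these 3 libraries held 14, 19 and 15, against 229 to 336 in the other 3 and 295 to 441 in CTR. The log2 fold change of Col4a6 was −0.92 ± 0.30 (adjusted p = 0.0196). With array weights it was −0.63 and was no longer called (adjusted p = 0.0561).

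**Figure D3:**
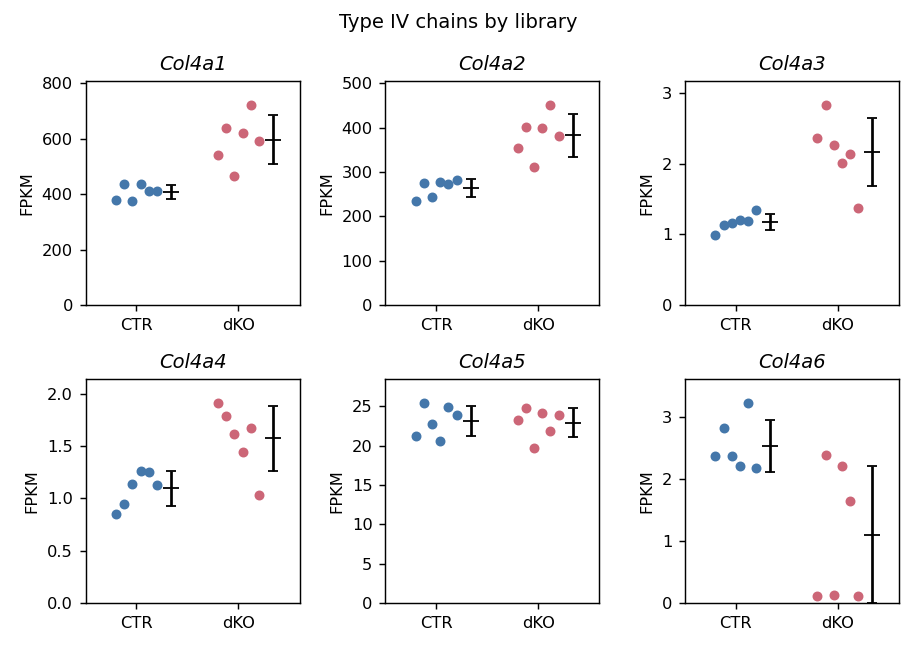
FPKM of the 6 type IV collagen chains in each CTR (blue) and dKO (red) library, each point 1 library, with the mean and SD of the 6 libraries in black and each axis starting at 0 (the lower bar of Col4a6 in dKO ends at the axis). The first 4 genes lie higher in dKO, Col4a5 lies at one level in both groups, and Col4a6 in dKO has 3 libraries at 0.113 to 0.136 FPKM and 3 at 1.64 to 2.39 FPKM.

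Col15a1 and Col18a1 encode the multiplexin chains of basement membrane zones, which carry endostatin-like ends, and both were lower. Col18a1 was at 102 to 123 FPKM (median 113) in CTR and 47.9 to 80.9 FPKM (median 63.0) in dKO, without overlap (−0.85 ± 0.10, adjusted p = 3.08e-05). Col15a1 was at 10.3 to 23.7 FPKM (median 20.3) in CTR and 4.90 to 11.95 FPKM (median 7.75) in dKO (−1.20 ± 0.20, adjusted p = 0.000366). Its overlap came from CTR 4, at 10.3 FPKM, as the other CTR libraries were at 18.8 FPKM or more. It had the largest fall of the tested chains on this scale, which understates changes near 1 FPKM. By limma-voom on all genes, Col4a6 (−2.27) and Col7a1 (−1.82) fell further than Col15a1 (−1.30). The basement membrane class was therefore split, with the first 4 type IV chains higher and both multiplexins lower.

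Among the other chains, type VI collagen forms beaded filaments close to cells. Col6a1 was at 87.0 to 178 FPKM (median 129.8) in CTR and 46.5 to 117 FPKM (median 85.6) in dKO (−0.61 ± 0.22, adjusted p = 0.0305). This call was lost when CTR 2, CTR 4, CTR 5, dKO 1 or dKO 3 was left out (adjusted p of 0.0516 to 0.062), and with no filter (adjusted p = 0.0656). Col6a2 was at 31.3 to 60.1 FPKM (median 42.6) in CTR and 14.8 to 37.1 FPKM (median 25.3) in dKO (−0.76 ± 0.21, adjusted p = 0.00797). Col6a3 was at 29.8 to 63.1 FPKM (median 46.9) in CTR and 21.9 to 48.5 FPKM (median 37.6) in dKO, and was not called (−0.35 ± 0.20, adjusted p = 0.166). The groups overlapped in all 3 genes, with CTR 4 the highest and CTR 1 or CTR 6 the lowest of the CTR libraries. Col6a4, Col6a5 and Col6a6 were not tested.

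The FACITs are chains that sit on the surface of fibrils. Col12a1, known from tendon and from matrix under tension, was at 17.2 to 70.2 FPKM (median 45.01) in CTR and 59.0 to 90.6 FPKM (median 62.8) in dKO. It was higher (0.77 ± 0.26, adjusted p = 0.0243), although CTR 6 lay above 4 of the dKO libraries. The call was lost without dKO 2 or dKO 5 (adjusted p of 0.054 and 0.0503) and with no filter (adjusted p = 0.0543). Col14a1 was at 25.7 to 45.5 FPKM (median 33.1) in CTR and 10.2 to 22.1 FPKM (median 18.2) in dKO, without overlap (−1.02 ± 0.18, adjusted p = 0.000469). Col16a1 was at 16.0 to 21.7 FPKM (median 18.6) in CTR and 8.40 to 11.8 FPKM (median 9.83) in dKO, without overlap (−0.90 ± 0.09, adjusted p = 9.55e-06). The FACITs tested therefore moved in both directions.

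The largest rise was in Col8a1, a short-chain network collagen of vessel walls and of the membrane under the corneal endothelium. It was at 3.61 to 12.9 FPKM (median 7.17) in CTR and 15.03 to 24.8 FPKM (median 22.0) in dKO. Every dKO library was above every CTR library, and the log2 fold change was 1.44 ± 0.24 (adjusted p = 0.000266). Col23a1, a transmembrane collagen, was at 2.62 to 6.75 FPKM (median 4.28) in CTR and 6.18 to 22.3 FPKM (median 11.01) in dKO. Only dKO 1 lay within the CTR range (1.33 ± 0.27, adjusted p = 0.00135). Col13a1, the other transmembrane chain tested, was at 0.74 to 3.10 FPKM (median 1.39) in CTR and 0.434 to 1.32 FPKM (median 0.849) in dKO and was not called (−0.44 ± 0.18, adjusted p = 0.0583), but it was called without CTR 1, CTR 6 or dKO 4 (adjusted p of 0.0209 to 0.0465).

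Col7a1, the chain of the fibrils that anchor epithelial basement membranes, was at 2.73 to 4.45 FPKM (median 3.15) in CTR and 0.725 to 1.04 FPKM (median 0.92) in dKO. It had the smallest adjusted p of the 26 tested chains. The groups did not overlap, and the log2 fold change was −1.15 ± 0.09 (adjusted p = 1.71e-06). It passed the filter through its 6 CTR libraries and 2 of the dKO libraries. Col28a1, a chain known from nerve sheaths, was at 1.04 to 5.23 FPKM (median 2.76) in CTR and 0.42 to 8.04 FPKM (median 3.74) in dKO and was not called (0.23 ± 0.39, adjusted p = 0.635).

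The 18 chains that were not tested were all under 1 FPKM, with a highest value of 0.783 FPKM, in Col27a1. Of these, 10 were at 0 in at least 1 library, and Col9a1 had 1 fragment in all 12 libraries together. These include most chains known from cartilage (Col2a1, Col9a1, Col9a2, Col9a3, Col10a1 and Col11a2) and Col17a1, a chain of epithelial hemidesmosomes. The groups did not overlap in 2 of the 18, which are named because of their values, beside 4.73% of the 16222 genes below the filter that had a value above 0. Col20a1 was at 0.112 to 0.2 FPKM in CTR and 0.249 to 0.4 FPKM in dKO, and Col22a1 was at 0.0889 to 0.16 FPKM in CTR and 0.204 to 0.336 FPKM in dKO. When limma-voom was run over all genes, 3 of the 18 were called, beside 27.5% of all genes in that fit and 12.9% of its genes below the filter. They were Col20a1 (log2 fold change 1.02, adjusted p = 0.00292) and Col22a1 (0.86, adjusted p = 0.00547) as higher, and Col24a1 (−1.46, adjusted p = 0.00596) as lower. With no filter, limma called these 3 chains in the same directions, beside 26.3% of all genes in that fit. It also called Col11a2 as lower (log2 fold change −0.07, adjusted p = 0.0385). Col24a1 was at 0.0848 to 0.346 FPKM in CTR and 0.0474 to 0.0896 FPKM in dKO.

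Together these changes altered the make-up of the collagen transcripts. The 44 chains summed to 3605 to 4314 FPKM (median 4025) in CTR and 2290.2 to 3361 FPKM (median 3134) in dKO. Fibrillar chains made up 69.5 to 72.0% of this sum (median 71.0%) in CTR and 48.7 to 56.2% (median 53.9%) in dKO. Basement membrane chains made up 19.6 to 22.1% (median 20.7%) in CTR and 33.6 to 42.6% (median 36.5%) in dKO. Neither share overlapped between the groups. The other chains made up 7.42 to 9.75% and 8.68 to 10.4%. The summed FPKM of the type I chains was 2.26 to 2.76 times that of the type IV chains in CTR and 0.691 to 1.07 times in dKO. Since each share is a part of 1 sum, a lower fibrillar share raises the others, and the shares describe the balance and not the amount of any class. The fibrillar chains summed to 2570 to 3101 FPKM in CTR and 1115 to 1879 FPKM in dKO, without overlap. The basement membrane chains summed to 764 to 886 FPKM (median 853) in CTR and 863 to 1293 FPKM (median 1097) in dKO, with overlap. The other chains summed to 271 to 404 FPKM in CTR and 199 to 343 FPKM in dKO.

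**Figure D4:**
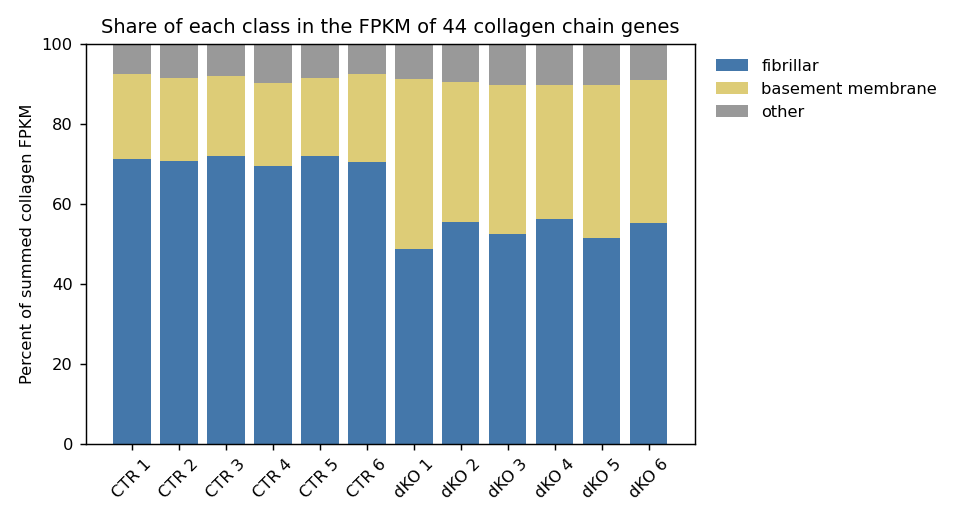
Share of the fibrillar (blue), basement membrane (yellow) and other (grey) chains in the summed FPKM of the 44 collagen chain genes, as stacked bars that add up to 100% for each of the 12 libraries. The fibrillar share is 69.5 to 72.0% in the CTR libraries and 48.7 to 56.2% in the dKO libraries.

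Chains that assemble into the same molecule or, as with types I and III, the same fibril need not change alike, so 6 ratios of partner chains were compared with exact two-sided permutation tests of the mean log2 ratio, over all 924 ways to place 12 libraries in groups of 6, with p adjusted over the 6. Type I collagen is known to hold more α1 than α2 chains. The Col1a2 to Col1a1 ratio was 0.456 to 0.551 (median 0.512) in CTR and 0.602 to 0.675 (median 0.619) in dKO. All 6 dKO libraries were above all CTR libraries, by 0.30 ± 0.05 on the log2 scale (exact p = 0.00217, the smallest these can give, adjusted p = 0.00649). The Col5a2 to Col5a1 ratio was 2.46 to 3.28 (median 2.89) in CTR and 3.15 to 3.67 (median 3.39) in dKO, higher by 0.25 ± 0.06 (exact p = 0.00433, adjusted p = 0.00866), and 5 of 6 dKO libraries were above all CTR libraries. The Col6a2 to Col6a1 ratio was 0.325 to 0.365 (median 0.334) in CTR and 0.291 to 0.318 (median 0.297) in dKO, lower in each dKO library, with a log2 difference of −0.17 ± 0.04 (exact p = 0.00217, adjusted p = 0.00649).

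The other 3 ratios did not pass the test. The Col6a3 to Col6a1 ratio had a log2 difference of 0.26 ± 0.11 (exact p = 0.0519, adjusted p = 0.0779). The Col3a1 to Col1a1 ratio was 0.298 to 0.606 in CTR and 0.292 to 0.526 in dKO, a log2 difference of −0.06 ± 0.20 (exact p = 0.755, adjusted p = 0.807). The Col4a2 to Col4a1 ratio was 0.617 to 0.686 (median 0.639) in CTR and 0.6248 to 0.666 (median 0.643) in dKO. It had the smallest log2 difference of the 6 ratios, −0.01 ± 0.03 (exact p = 0.807, adjusted p = 0.807).

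**Figure D5:**
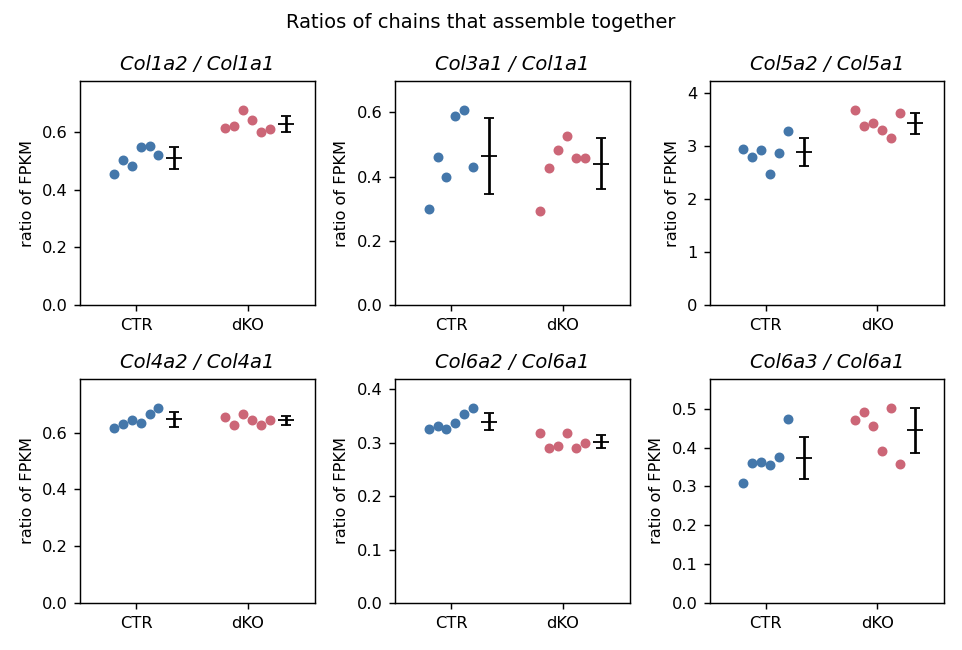
Ratio of FPKM between chains that assemble together in each CTR (blue) and dKO (red) library, with the mean and SD of the 6 libraries in black and each axis starting at 0. The Col1a2 to Col1a1 ratio is higher in all dKO libraries (0.602 to 0.675 against 0.456 to 0.551), the Col6a2 to Col6a1 ratio is lower in all of them, and the Col4a2 to Col4a1 ratio lies in the same range in both groups.

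The CTR libraries differed among themselves. CTR 4 was the highest of the 6 CTR libraries for 8 of the 26 tested chains (among them Col6a1, Col6a2, Col6a3, Col16a1, Col13a1, Col23a1 and Col28a1) and the lowest for 9 (among them Col5a1, Col5a2, Col11a1, Col12a1, Col8a1 and Col15a1). CTR 6 was highest for 8 chains, including Col5a1, Col5a2, Col11a1 and Col12a1, and lowest for 6, including Col6a1, Col13a1 and Col23a1. Markers moved with these libraries. Of the 6 CTR libraries, CTR 4 was the highest for all 10 endothelial markers, 6 of the 8 lung epithelial markers and 8 of the 10 fibroblast markers, such as Pdgfra (164 FPKM, against 76.4 FPKM in CTR 6). CTR 6 was the lowest for 7 of the 10 endothelial markers and the highest for 5 of the 10 smooth muscle and pericyte markers, such as Acta2 (1328 FPKM, against 409 FPKM in CTR 4). In dKO, dKO 1 was the lowest for 12 chains and dKO 3 for 11, while dKO 2, dKO 4 and dKO 5 were the lowest for none. Of the dKO libraries, dKO 1 was the lowest for 7 of the 10 fibroblast markers and the highest for 6 of the 10 smooth muscle and pericyte markers. The dKO 3 library was the highest for 8 of the 10 macrophage markers and the lowest for 5 of the 10 endothelial markers. The part of these markers in the collagen values was not tested. The median coefficient of variation of the 26 chains was 20.2% in CTR and 22.0% in dKO. Without CTR 4, the number of chains called was 21 (7 higher, 14 lower), and leaving out any 1 library kept it between 20 and 22.

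Genes that make, bind or cut collagen were split between the directions. Of 51 such genes in 6 lists, 44 were tested, and 13 were higher, 12 lower and 19 not called (25 of 44, beside 53.1% of all tested genes), with a median log2 fold change of 0.03. With no filter, 20 of 51 were called (9 higher, 11 lower), beside 26.3% of all genes in that fit. Of 13 tested genes of collagen hydroxylation and glycosylation, 4 were higher and 5 lower. The largest changes there were in P4ha3, a prolyl 4-hydroxylase subunit (17.3 ± 2.46 FPKM in CTR and 9.47 ± 2.47 in dKO, mean ± SD, n = 6 each, log2 fold change −0.83, adjusted p = 0.000888 by limma), and in P3h3, of the prolyl 3-hydroxylase family (21.8 ± 0.845 and 12.3 ± 2.62 FPKM, −0.80, adjusted p = 9.64e-05). Of 7 genes of collagen folding and export, 3 were lower and none was higher. Serpinh1, the collagen chaperone HSP47, was at 716 to 933 FPKM (median 868) in CTR and 483 to 587 FPKM (median 527) in dKO, without overlap (−0.68 ± 0.08, adjusted p = 1.72e-05). Fkbp10, a chaperone of procollagen, was at 57.6 ± 6.73 FPKM in CTR and 38.4 ± 3.97 in dKO (−0.57, adjusted p = 0.000271).

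The counts of the next lists stand beside 20.4% of all tested genes called as higher and 32.6% called as lower. Of 7 tested procollagen processing genes, 1 was higher and 2 were lower, the propeptide-cutting proteases Adamts3 (3.89 ± 2.18 FPKM in CTR and 1.03 ± 0.57 in dKO, −1.18, adjusted p = 0.0047) and Adamts14 (9.27 ± 5.34 and 3.73 ± 1.76 FPKM, −1.01, adjusted p = 0.0264). With no filter, Adamts14 was no longer called (adjusted p = 0.0595). Of 5 crosslinking genes of the lysyl oxidase family, Loxl3 was lower (50.1 ± 19.5 and 26.1 ± 2.99 FPKM, −0.80, adjusted p = 0.0185), Loxl2 was higher (54.0 ± 2.78 and 66.9 ± 11.7 FPKM, 0.29, adjusted p = 0.0363) and 3 were not called. The call of Loxl2 was also lost with no filter (adjusted p = 0.0666). Of 7 tested collagen receptors, 3 were higher and 1 lower. The higher ones were Itga1 and Itga2, which lost their calls with no filter (adjusted p = 0.0561 and 0.0864), and Lair1. Itga1 and Itga2 encode collagen-binding integrin α chains, and Itga10 and Itga11 of the same list were not tested. Lair1, an inhibitory collagen receptor of leukocytes, was at 0.675 ± 0.0805 FPKM in CTR and 2.34 ± 1.09 in dKO (0.95, adjusted p = 0.000218), in libraries where macrophage markers were also higher. It was under 1 FPKM in all 6 CTR libraries and passed the filter through its 6 dKO libraries alone, so it had to differ to be tested. Ddr2, a receptor for fibrillar collagen, was at 50.3 ± 5.15 FPKM in CTR and 32.5 ± 5.56 in dKO (−0.63, adjusted p = 0.000586).

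Of the 5 tested collagen-degrading enzymes, 4 were higher and none was lower, beside 20.4% and 32.6% of all tested genes. The median over these 5 was 0.90 on the log2 scale. With no filter, 2 of 6 such enzymes (Mmp8 and Ctsk) were called, beside 26.3% of all genes in that fit. Mmp13 (adjusted p = 0.0607) and Mmp2 (adjusted p = 0.0896) were then not called. Itga1, Itga2, Ctsk and Mmp2 were named after their values were seen. Mmp8, a collagenase known from neutrophils, was at 18.3 to 114 FPKM (median 42.1) in CTR and 99.4 to 313 FPKM (median 228) in dKO (2.27 ± 0.39, adjusted p = 0.000355). Its groups overlapped because CTR 4 lay above dKO 1. Mmp13, also a collagenase, was at 1.11 to 5.20 FPKM (median 3.33) in CTR and 4.19 to 16.1 FPKM (median 5.49) in dKO (0.92 ± 0.32, adjusted p = 0.0271). The cells that these transcripts came from were not tested.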

How the data were processed

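RNA of MLECs was extracted with Trizol, made into libraries with an NEBNext Ultra kit and sequenced as paired-end reads. For alignment to mm39 the authors used STAR, after trimming by Trimmomatic, and reads that aligned uniquely were aligned once more. The submitters' processing notes name Bowtie2 2.2.3, HISAT2 2.1.0, TopHat2 and DESeq2. The counting program, its annotation and its strand setting are not given in the sources used here. The authors deposited FPKM values for 28689 genes in 12 libraries (6 CTR, 6 dKO), and 0 columns of other samples stood in the table. The dKO columns carry the prefix TAM, which may stand for tamoxifen, although both groups received it. These columns were assigned to dKO as the columns that are not CTR. The labels' protocol text speaks of retinas and another kit, which goes against their lung labels.

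Of the 28689 genes, 27706 matched the GENCODE M39 annotation of GRCm39. Since FPKM are not counts, limma 3.58.1 in R 4.3.3 was run on log2(FPKM + 1) with lmFit and eBayes with a trend, for genes at 1 FPKM or more in at least 6 libraries, with no block, and p was adjusted by Benjamini-Hochberg. Fragments behind the values were recovered by searching, for each gene, a whole length between 20 and 150000 bases that makes all 12 values whole, which it did for 100% of them. Of these lengths, 5735 equal the merged exon length of the annotation, so other lengths rest on this search. They served for depth and for limma-voom as an alternative, which called 6609 of 12467 genes, against 6614. Fragment numbers of the 30 pairs of libraries within a group differed by a chi-square per degree of freedom of at least 12.2. No library was therefore taken as a resequenced repeat of another, but this does not show that each came from a separate mouse. The depth does not limit the abundant chains, and for chains under 1 FPKM a library held few fragments. Any limits from fragment numbers cover counting error only.

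The collagen chains and the lists of other genes were chosen with earlier results of these data known. All 44 chains are accounted for. Library ranges are given for tested chains, and of each collagen pathway list the 2 tested genes with the largest absolute log2 fold change are named. Deviations of same-numbered libraries from their group means correlated by −0.11 to 0.57, over 0.1 in 3 of 6 pairs, so the numbers were not taken as pairs. The alternatives were pseudocounts of 0.1 and 0.01, no filter, at least 5 FPKM in 6 libraries, TPM, median-of-ratios scaling, quantile normalization, array weights, the replicate number as a block, limma-voom and leaving out each library. Those added after seeing the data were no filter with a pseudocount of 0.01, limma-voom on all genes and the threshold of 1.5-fold. The fit, the recovery of fragments and the permutation test were run on simulated data. The simulated fit had fewer changed genes than these data, so this checks the code and not how well it suits these libraries. Motifs were searched in the 250 bases before the start of the canonical transcript, on both strands. Other steps ran in Python 3.11.15 (pandas 2.3.3, NumPy 2.4.6, Matplotlib 3.10.9, numba 0.67.0).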

Additional observations from a re-analysis of the deposited data

Results flagged for a closer look

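Among the 52 groups of 6 values of the tested chains, 2 held a library whose gap to the nearest of the others relative to the group's range was past the 95% critical value of Dixon's test, and chance gives about 1 in 20 groups (2.6 of 52). Col15a1 in CTR 4 was at 10.3 FPKM, and the other CTR libraries were at 18.8 to 23.7 FPKM. Without CTR 4 the log2 fold change of Col15a1 was −1.36, against −1.20 with it. Col7a1 in CTR 6 was at 4.45 FPKM, and the other CTR libraries were at 2.73 to 3.36 FPKM.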

How the results depend on the processing

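Of the 26 tested chains, 19 kept their direction and their side of the threshold under each of the 24 alternatives that tested them. The others were Col4a5, Col4a6, Col6a1, Col6a3, Col11a1, Col12a1 and Col13a1. The number of chains called ranged from 17 (at least 5 FPKM in 6 libraries, with 20 chains tested) to 24 (limma-voom on all genes, with 44 tested), and from 20 to 22 without any 1 library. With an absolute log2 fold change over 1.5, it was 0 as reported, 3 with a pseudocount of 0.1, 4 with 0.01, 1 under median-of-ratios scaling, 2 with TPM, 4 with limma-voom, 4 with no filter and a pseudocount of 0.01, 4 with limma-voom on all genes, and 0 to 1 without any 1 library (Col8a1 passed without CTR 1, CTR 3, dKO 3 or dKO 4). Of the 44 tested genes of the collagen pathway lists, 25 were called, and over the alternatives the number ranged from 20 (no filter, with 51 tested) to 28 (median-of-ratios scaling), and from 21 to 26 without any 1 library. At least 5 FPKM in 6 libraries left 5 basement membrane chains, of which 4 were called. Sp3 was called with TPM (−0.20, adjusted p = 0.0496) and array weights (−0.15, adjusted p = 0.039), and between −0.18 and −0.11 without any 1 library, with a call only without CTR 6. Col1a1 ranged from −1.13 to −0.97 and Col1a2 from −0.83 to −0.66 without any 1 library, and both were called each time. The causes of these changes were not tested.

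Not past the threshold in any of these fits, Col4a5 turned to 0.078 under median-of-ratios scaling and 0.0153 with quantile normalization, and without 1 library it was between −0.0427 and 0.0285. With the median in place of the mean, the log2 difference of the Col3a1 to Col1a1 ratio turned to 0.0372 and that of the Col4a2 to Col4a1 ratio to 0.00903, and neither passed the test. Without 1 library the Col3a1 to Col1a1 difference was between −0.178 and 0.0552, the Col4a2 to Col4a1 difference between −0.0201 and 0.0109, and the Col6a3 to Col6a1 difference between 0.20 and 0.33, which passed without CTR 6 or dKO 6 (adjusted p = 0.0325). The same-numbered libraries share only a number. With the replicate number as a block, 23 of 26 chains were called, Col6a3 (adjusted p = 0.00154) and Col13a1 (adjusted p = 0.0144) among them, and 2 of the 6 CTR libraries correlated best with their own number. As sign flips of 6 pairs cannot give a p below 0.0312, the block left the ratios Col1a2 to Col1a1 (0.30), Col5a2 to Col5a1 (0.25) and Col6a2 to Col6a1 (−0.17) at an adjusted p of 0.0625.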
